A study of Mus musculus with 114 samples.

Results

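Metabotropic glutamate receptors are G-protein-coupled receptors that sense synaptic glutamate, and 6 of their genes (Grm2, Grm3, Grm4, Grm5, Grm7 and Grm8) were described here among the 13101 genes of the count table. They were picked by gene symbol, each matched to 1 Ensembl row, and all 6 passed the filter on low counts. The libraries hold RNA bound to hemagglutinin-tagged ribosomes, pulled down from the prefrontal cortex of Ribo-tag mice, in which a Cre recombinase restricts the tag to chosen cells. The groups were 6 zeitgeber times (ZT2, ZT6, ZT10, ZT14, ZT18 and ZT22, in hours after lights on), both sexes, and library titles that begin with PV (55 libraries) or C (58 libraries), with 8 to 10 libraries for each title and time and 4 or 5 for each title, time and sex. No treatment separates the groups, and all mice carried the tagged ribosome. The sources used here give neither the Cre driver nor the age of the mice, nor whether each library came from a separate animal, so the p-values measure the spread between these libraries, which may be technical in part.

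The cell type entry of the labels goes against the titles, since it gives parvalbumin interneurons for the C-titled libraries and pyramidal neurons for the PV-titled ones. The groups are therefore called PV-titled and C-titled. All 8 parvalbumin interneuron markers and all 5 measured GABAergic markers were higher in PV-titled libraries by edgeR's quasi-likelihood test, and the parvalbumin interneuron markers summed to 235.2 to 916.5 CPM (counts per 1000000 counts in genes) there against 70.9 to 149.4 CPM in C-titled libraries. Of 11 pyramidal markers, 9 were lower under the PV titles and 1 higher, with summed levels of 1513 to 3771 CPM against 3841 to 7724 CPM. Neither pair of ranges overlapped, which places the PV titles on the interneuron side. Astrocyte markers were higher in PV-titled libraries for 9 of 10 genes, at 1220 to 2660 CPM against 464 to 1326 CPM in sum, and so were all 9 oligodendrocyte lineage, all 8 microglia and all 8 endothelial and mural markers. Of 9 markers of other interneurons, 7 were higher and 1 lower. No marker was at 0 in every library of a title. The share of reads in no feature was higher in PV-titled libraries (median 61.2% against 52.8%), and its part in the differences between titles was not tested. Library totals, in M counts (1 M is 1000000), ran from 19.1 to 39.5 M for the PV titles and from 24.6 to 44.1 M for the C titles. By their correlation with the other libraries of their title, 3 libraries with PV titles (ZT10, ZT14, ZT22) and 5 C-titled libraries (at ZT2 and ZT6) stood apart, and results that rest on them are given with and without them.

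The receptors fall into 3 groups. Group I, here mGlu5 (Grm5), couples to Gq and phospholipase C, lies largely beside the postsynaptic density and is tied to scaffolds by Homer proteins. Group II, mGlu2 (Grm2) and mGlu3 (Grm3), and group III, here mGlu4 (Grm4), mGlu7 (Grm7) and mGlu8 (Grm8), couple to Gi/o, lower cyclic AMP and act mainly on presynaptic terminals to restrain transmitter release. In cortex mGlu2 is known as a receptor of excitatory terminals, mGlu3 is carried by neurons and by astrocytes, and mGlu7 sits in the active zone.

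The 6 receptors differed most between titles in Grm2, followed by Grm8 and Grm3, and all estimates were lower in PV-titled libraries. By edgeR's quasi-likelihood test with Benjamini-Hochberg adjustment over all 13053 genes tested, 5 of the 6 receptors were lower in PV-titled libraries at an adjusted p under 0.05, and none was higher. That test called 87.5% of all genes, with 44.3% of all genes higher and 43.2% lower, so the number of receptors called says little by itself. The median log2 difference, PV-titled minus C-titled, was -0.50 over the 6 receptors and 0.01 over all genes tested. In pull-downs from bulk tissue, fewer cells of a type and less RNA per cell cannot be told apart.

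**Figure D1:**
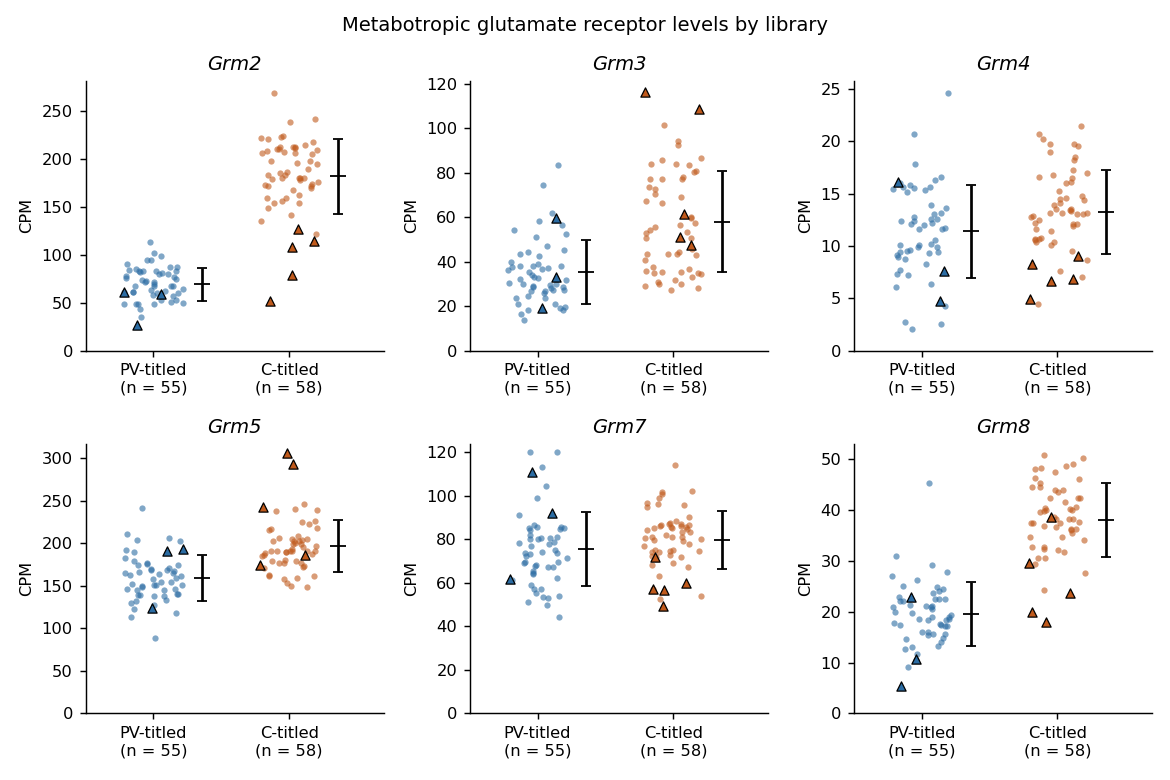
Level of each receptor gene in CPM (linear axis) in every PV-titled (n = 55) and C-titled (n = 58) library, with the mean and SD beside the points and triangles for the 8 libraries that stood apart. Grm2 separates the titles except for 3 C-titled triangles, whereas Grm4 and Grm7 overlap throughout.

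Grm2 encodes the presynaptic autoreceptor mGlu2 and lies on chromosome 9 at 106643095 to 106656082 on the minus strand (ENSMUSG00000023192, GRCm38). Its level in PV-titled libraries ran from 27.0 CPM at the lowest through a median of 68.0 to 113.1 CPM at the highest, and in C-titled libraries from 52.1 through 183.4 to 269.6 CPM. Of the 58 C-titled libraries, 55 lay above the highest PV-titled library, and the 3 that did not were all among the libraries that stood apart, at ZT2 and ZT6. The mean was 69.6 ± 17.2 CPM (SD, n = 55) against 182.3 ± 39.0 CPM (SD, n = 58). The log2 difference was -1.39 (SE 0.07, edgeR adjusted p = 3.54e-38), which is 2.63-fold higher in C-titled libraries with a 95% interval of 2.39 to 2.89. Grm2 was the only receptor called in a test against a 2-fold threshold (edgeR's glmTreat, adjusted p = 2.06e-08), a call made for 22.5% of all genes and, in the lower direction, for 4.54%. The ratio of means was between 2.34 and 3.23 at the 6 times, and at 5 of them every C-titled library lay above every PV-titled one. Its log2 difference lay within the span of the pyramidal markers, which ran from -1.63 to 0.27 with a median of -1.14.

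Grm8 encodes mGlu8, a high-affinity presynaptic receptor of group III (chromosome 6 at 27275119 to 28135178, minus strand, ENSMUSG00000024211). Its level ran from 5.43 through a median of 19.1 to 45.4 CPM in PV-titled and from 18.05 through 38.3 to 50.8 CPM in C-titled libraries. Of the PV-titled libraries, 54 of 55 lay below the median of the C-titled ones, although the ranges overlapped. The means were 19.6 ± 6.25 CPM (SD, n = 55) and 38.1 ± 7.28 CPM (SD, n = 58), a log2 difference of -0.97 (SE 0.07, edgeR adjusted p = 2.26e-25). The level was 1.96-fold higher in C-titled libraries (95% interval 1.78 to 2.16).

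Grm3 encodes mGlu3, the other group II receptor, which responds to the peptide N-acetylaspartylglutamate (NAAG) as well as to glutamate (chromosome 5 at 9485541 to 9725170, minus strand, ENSMUSG00000003974). Its level ran from 13.9 through a median of 32.5 to 83.4 CPM in PV-titled and from 27.2 through 53.7 to 116.01 CPM in C-titled libraries. The ranges overlapped widely, with 48 of 55 PV-titled libraries below the C-titled median. The means were 35.6 ± 14.4 CPM (SD, n = 55) and 58.02 ± 22.7 CPM (SD, n = 58), and the log2 difference was -0.71 (SE 0.08, edgeR adjusted p = 2.55e-14), which is 1.63-fold higher in C-titled libraries (95% interval 1.46 to 1.82). Grm3 thus moved against the astrocyte markers, whose median log2 difference was 2.04 towards the PV-titled libraries. What astrocyte RNA adds to the Grm3 level in either title was not tested.

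Grm5 encodes mGlu5, the group I receptor of the 6 (chromosome 7 at 87584168 to 88134907, plus strand, ENSMUSG00000049583). Its level ran from 89.1 through a median of 157.5 to 241.1 CPM in PV-titled and from 148.5 through 191.3 to 306.2 CPM in C-titled libraries. It was lower in PV-titled libraries by 0.30 on the log2 scale (SE 0.04, edgeR adjusted p = 1.45e-10), with means of 159.3 ± 27.4 CPM (SD, n = 55) and 196.95 ± 30.6 CPM (SD, n = 58) and 48 of 55 PV-titled libraries below the C-titled median. The difference was small, at 1.23-fold (95% interval 1.16 to 1.31), but Grm5 had the lowest spread of the 6, with a coefficient of variation of 17.2% and 15.6%.

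Grm4 encodes mGlu4, a presynaptic group III receptor (chromosome 17 at 27422387 to 27521403, minus strand, ENSMUSG00000063239), and was the lowest of the 6 in CPM. It ran from 2.04 through a median of 11.7 to 24.6 CPM in PV-titled and from 4.50 through 13.2 to 21.5 CPM in C-titled libraries, with means of 11.4 ± 4.41 (SD, n = 55) and 13.3 ± 4.01 CPM (SD, n = 58). Its log2 difference of -0.22 (SE 0.10, edgeR adjusted p = 0.0340) passed the threshold narrowly. The call was lost in 9 of the 17 alternatives run, among them each sex alone. It held without the libraries that stood apart (-0.27, edgeR adjusted p = 0.00605).

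Grm7 encodes mGlu7, the low-affinity group III receptor of the active zone (chromosome 6 at 110645581 to 111567230, plus strand, ENSMUSG00000056755). Its level ran from 44.1 through a median of 73.5 to 119.98 CPM in PV-titled and from 49.4 through 80.8 to 113.9 CPM in C-titled libraries. The means were 75.4 ± 17.1 (SD, n = 55) and 79.6 ± 13.3 CPM (SD, n = 58). The log2 difference of -0.08 (SE 0.05, edgeR adjusted p = 0.138) did not pass, and its 95% interval reached from -0.18 to 0.02. It was called without the libraries that stood apart (-0.15, adjusted p = 0.00393), and its sign flipped without scaling (0.11, adjusted p = 0.0565). A gene on the opposite strand, Gm20387, overlaps Grm7 and was counted at 5.31 ± 2.17 CPM in PV-titled and 3.46 ± 0.96 CPM in C-titled libraries. Whether the counting used strand is not given in the sources used here, so reads of the shared stretch may not be told apart.

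Library numbers in the titles fall into 2 ranges, which may mark batches, and 5 of the receptors kept their direction in both. Grm2 differed by -1.47 on the log2 scale in the first range alone and by -1.33 in the second, Grm8 by -1.07 and -0.87, Grm3 by -0.59 and -0.79, Grm5 by -0.32 and -0.29, and Grm4, called in neither, by -0.27 and -0.13. Grm7 was lower in PV-titled libraries of the first range (-0.26, edgeR adjusted p = 0.00139) and estimated at 0.09 in the second (adjusted p = 0.221). This change between ranges was itself past the threshold for Grm7 (0.35, SE 0.10, adjusted p = 0.0103), in a test added after the data were seen that called 16.0% of all genes, and was not called for the others. In C-titled libraries Grm7 averaged 86.1 ± 12.04 CPM (SD, n = 29) in the first range and 73.2 ± 11.4 CPM (SD, n = 29) in the second. Grm3 itself stood 1.74-fold higher in the second range than in the first among C-titled libraries, at 73.7 ± 15.9 against 42.3 ± 16.9 CPM, and 1.53-fold higher among PV-titled ones, at 42.6 ± 14.6 (SD, n = 29) against 27.7 ± 9.28 CPM (SD, n = 26). No test of the range by itself was run, and range was a term in each model.

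**Figure D2:**
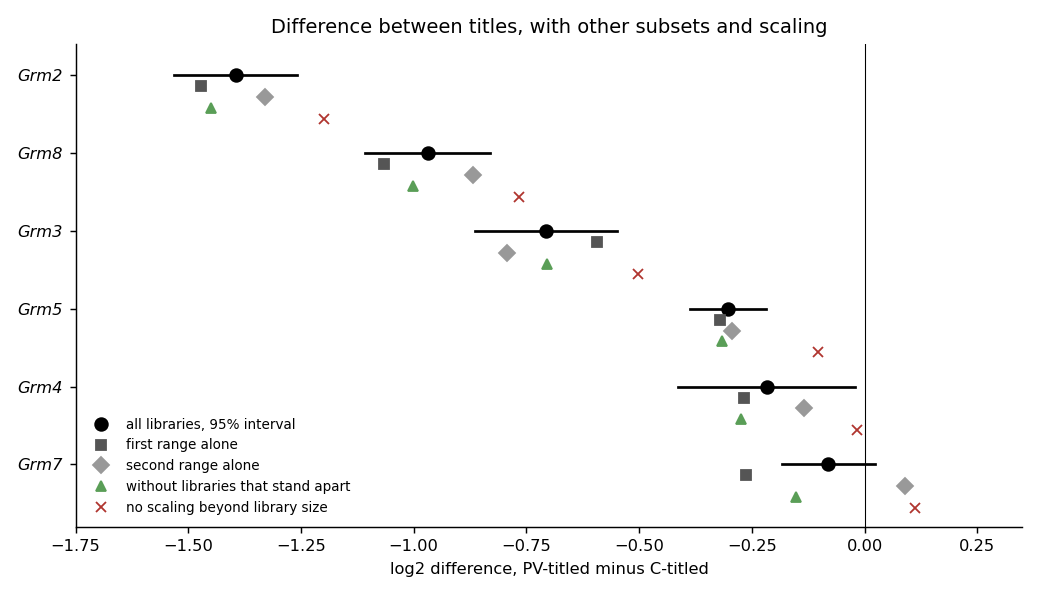
Log2 difference between titles (PV-titled minus C-titled) for each receptor, with the 95% interval from all libraries (black) and the estimates from subsets and from counts scaled by library size alone. Grm2, Grm8, Grm3 and Grm5 stay below 0 throughout, while Grm7 changes sign between the ranges and without scaling.

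Levels of different receptors were compared per kb of annotated exon. In C-titled libraries Grm2 led at 37.2 ± 7.98 CPM per kb and lay above Grm5 in 55 of 58 libraries. Grm5 (19.2 CPM per kb) and Grm3 (19.0) followed without separation, Grm5 being the higher in 32 of 58 libraries, and Grm7 stood at 13.5, Grm8 at 3.85 and Grm4 at 2.22 CPM per kb. In PV-titled libraries 4 receptors lay close together, with Grm5 at 15.5, Grm2 at 14.2, Grm7 at 12.8 and Grm3 at 11.7 CPM per kb, and the higher of neighbours in this order led in 31, 38 and 33 of 55 libraries. Grm8 (1.98) and Grm4 (1.91) were far below them, and so they were in C-titled libraries. Per kb of the longest transcript instead, Grm7 in PV-titled libraries stood at 17.9 CPM per kb, above Grm2 at 14.8 and below Grm5 at 19.8, so the order of these receptors depends on the length used. Grm8 then stood at 4.08 CPM per kb under the PV titles and 7.94 under the C titles. The 6 genes summed to 58.1 ± 8.60 CPM per kb in PV-titled and 95.1 ± 11.4 CPM per kb in C-titled libraries.

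The make-up of this sum differed as well. Group II held 44.1% ± 7.07 of it under the PV titles and 58.7% ± 5.51 under the C titles, and 54 of 55 PV-titled libraries lay below the C-titled median. Group III held 28.9% ± 4.89 against 20.8% ± 3.37, and Grm5 held 27.0% ± 4.33 against 20.5% ± 4.39. Within group II the share of Grm3 was 19.6% ± 5.67 and 19.8% ± 6.82, while that of Grm2 was 24.5% ± 4.93 and 39.0% ± 6.23. The difference in the group II share thus lay in Grm2. The level of Grm3 was itself lower under the PV titles (11.7 against 19.0 CPM per kb), as was the sum (58.1 against 95.1). Shares of a sum move against each other, so the higher shares of group III and Grm5 are not higher levels. These shares are descriptions of the same counts, with no test.

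**Figure D3:**
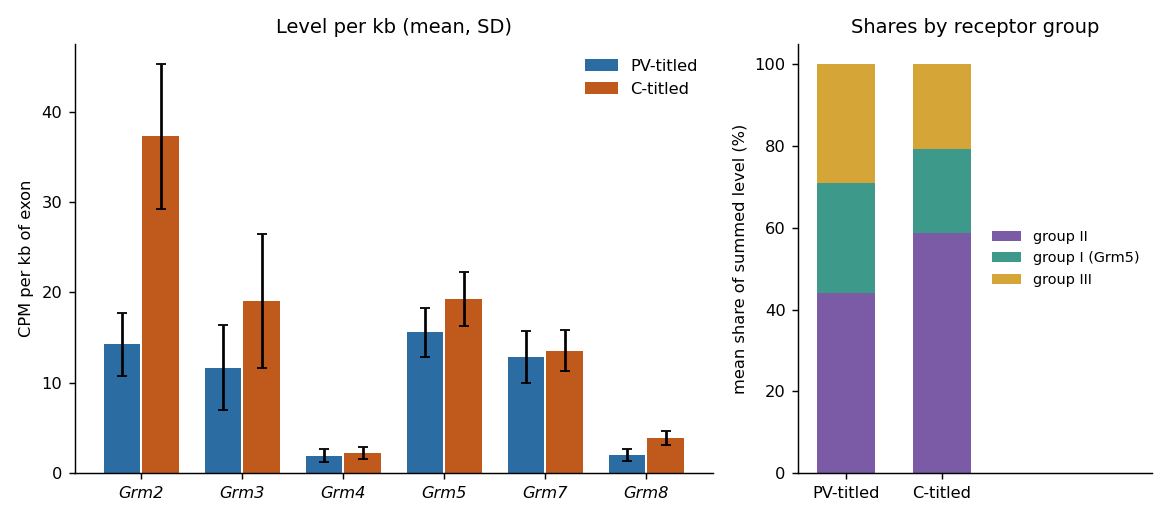
Left, mean level per kb of exon for each receptor in PV-titled and C-titled libraries, with SD. Right, mean share of group II, group I (Grm5) and group III in the summed level, which is 44.1% group II under the PV titles and 58.7% under the C titles.

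The daily profile was tested with a 24 h cosine in each title, and the amplitude is the log2 distance from mean to peak. In C-titled libraries, 2 of 6 receptors, Grm5 and Grm3, were called rhythmic by edgeR, where 27.0% of all genes were called and 15.8% with a peak from ZT0 to ZT12, as both receptors had. In PV-titled libraries none of the 6 was called, against 3.10% of all genes (1.29% with a peak from ZT0 to ZT12), with 1 receptor (Grm8) at an unadjusted p under 0.05 and none called by DESeq2. The median amplitude of the receptors was 0.14 in C-titled and 0.11 in PV-titled libraries, beside 0.12 and 0.11 for all genes. No receptor's profile was called different between titles (1.12% of all genes were), none at an unadjusted p under 0.05 and none by DESeq2.

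Grm5 in C-titled libraries averaged 213.5 ± 36.9 CPM at ZT2, 200.95 ± 41.8 at ZT6, 193.4 ± 23.9 at ZT10, 175.9 ± 20.7 at ZT14, 190.6 ± 21.98 at ZT18 and 206.3 ± 22.5 CPM at ZT22. It was highest at ZT2 and lowest at ZT14, with ranges of 153.6 to 293.5 and 148.5 to 205.8 CPM that overlapped. The amplitude was 0.12 (SE 0.03, edgeR adjusted p = 0.0270) with a peak at ZT1.70, a trough-to-peak ratio of 1.18. Without the 5 C-titled libraries that stood apart, all at ZT2 or ZT6, the amplitude was 0.09 and the call was lost (adjusted p = 0.101). In PV-titled libraries the amplitude was 0.10 with a peak at ZT3.32 (adjusted p = 0.416), and means ran from 148.2 CPM at ZT18 to 175.2 CPM at ZT6.

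Grm3 in C-titled libraries averaged 56.2 ± 28.3 CPM at ZT2, 67.3 ± 24.4 at ZT6, 61.7 ± 22.4 at ZT10, 58.8 ± 22.7 at ZT14, 51.8 ± 18.8 at ZT18 and 52.0 ± 20.01 CPM at ZT22. Libraries at ZT6 ran from 34.8 to 108 CPM and those at ZT18 from 29.3 to 84.0 CPM, so times were not separate. The amplitude was 0.22 (SE 0.07, edgeR adjusted p = 0.0305), the peak fell at ZT7.66, and the trough-to-peak ratio was 1.37. Without the libraries that stood apart it was called again, with a peak at ZT8.95 (0.22, adjusted p = 0.00108). With range left out of the model it was not called (0.19, adjusted p = 0.353). In PV-titled libraries the estimate was 0.16 (adjusted p = 0.508), and the difference of the profiles between titles gave 0.26 (SE 0.11, unadjusted p = 0.0696, adjusted p = 0.393).

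The promoter of Grm3 is shown because Grm3 was 1 of the 2 receptors called rhythmic. It covers the 250 bases before the RefSeq start on the minus strand of GRCm38.p6, chr5:9725353-9725602, written 5′ to 3′ with the motif match in capitals.
Grm3: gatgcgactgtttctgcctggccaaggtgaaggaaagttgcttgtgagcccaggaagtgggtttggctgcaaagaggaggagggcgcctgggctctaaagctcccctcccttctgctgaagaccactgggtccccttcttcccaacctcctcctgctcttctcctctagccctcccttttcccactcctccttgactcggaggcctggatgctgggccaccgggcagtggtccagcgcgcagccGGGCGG
The capitals mark the 1 match to the GC box GGGCGG, which 32.7% of the 32851 promoter windows in the RefSeq table hold on either strand. The E-box CACGTG (6.02% of windows), the D-box TTANGTAA (2.06%), the ROR element TAGGTCA (2.23%) and the cyclic AMP response element TGACGTCA (1.55%) had no match in these letters on either strand. The promoter table held 4 of the 6 receptors, and their windows likewise had no match to these 4 motifs. G and C made up 62.4% of the Grm3 window, beside a median of 52.4% over all windows.

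Among the receptors not called, Grm8 had the largest amplitude in PV-titled libraries, at 0.25 (SE 0.08, peak ZT21.6, edgeR adjusted p = 0.154). This value rested on part of the libraries, since it was 0.41 in the first range alone, 0.12 in the second range alone and 0.12 without replicate 1, and in the last 2 cases Grm3, Grm4 and Grm5 had larger amplitudes. Its PV-titled means ran from 16.3 ± 5.97 CPM at ZT6 and 16.7 ± 5.62 at ZT10 to 24.3 ± 7.84 CPM at ZT22. In C-titled libraries Grm8 also had its highest mean at ZT22, at 41.6 ± 6.29 CPM, and its lowest at ZT10, at 33.5 ± 6.01 CPM, with an amplitude of 0.15 and a peak at ZT19.9 (adjusted p = 0.0949). Grm2 in C-titled libraries averaged 155.9 ± 54.6 CPM at ZT2 and 205.2 ± 11.1 CPM at ZT14 (amplitude 0.14, peak ZT12.3, adjusted p = 0.181). Without the libraries that stood apart its amplitude was 0.13 with a peak at ZT9.03 and was called (adjusted p = 0.0355). In PV-titled libraries Grm2 had an amplitude of 0.02 (adjusted p = 0.989). Grm4 had amplitudes of 0.12 under the PV titles and 0.15 under the C titles, and Grm7 of 0.08 and 0.05, none of them called. With the 6 times ranked by mean, neighbours in rank differed by no more than the larger of their SDs in every receptor and title. Ranking keeps such gaps small, and times that follow each other could differ by more. In C-titled libraries Grm2 fell from 205.2 ± 11.1 CPM at ZT14 to 170.3 ± 17.2 CPM at ZT18.

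**Figure D4:**
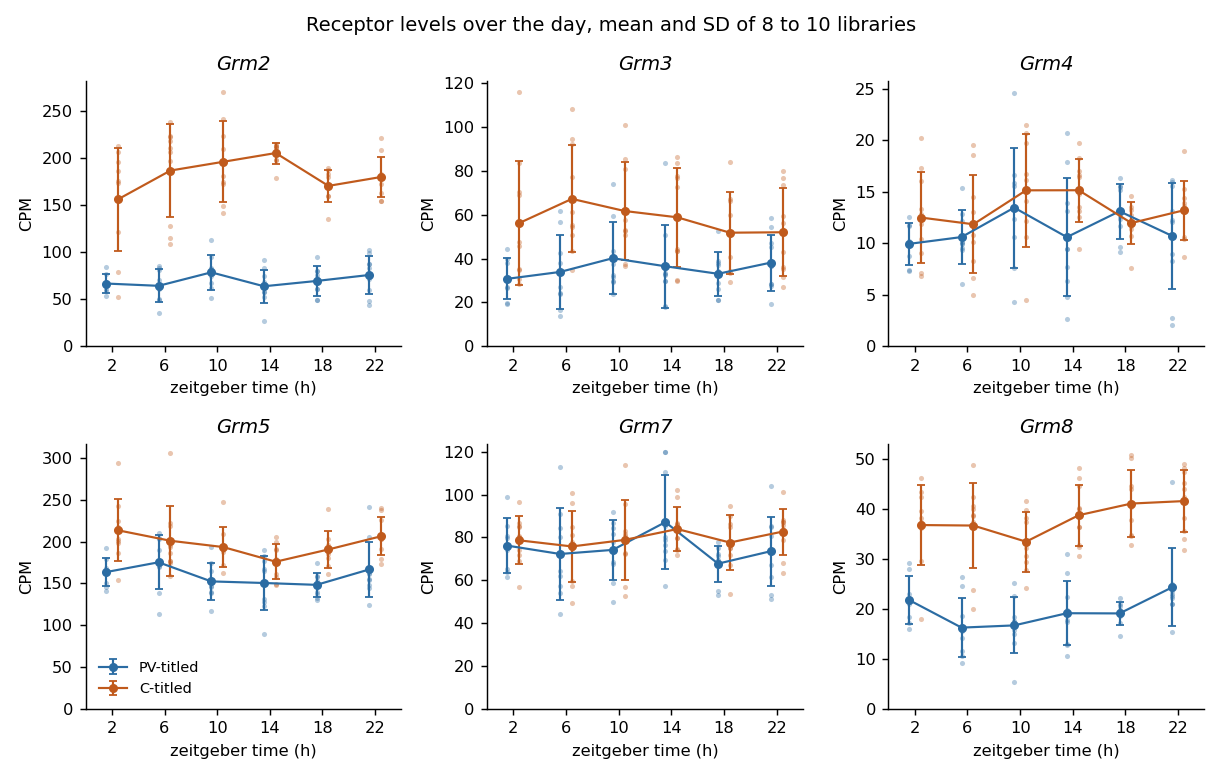
Level of each receptor in CPM over zeitgeber time in hours, with points for libraries and lines for the mean and SD of 8 to 10 libraries. Grm5 in C-titled libraries falls from 213.5 CPM at ZT2 to 175.9 CPM at ZT14, and the gap between titles in Grm2 is present at each time.

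Sex made no called difference in any receptor by edgeR or DESeq2. The share of all genes called was 0.0307% under the PV titles and 0.184% under the C titles (0.0461% higher and 0.138% lower in males), and 0% for the difference of the sex effect between titles. At an unadjusted p under 0.05 there were 0 receptors in PV-titled libraries, 2 in C-titled libraries and 0 for the difference. Those 2 were Grm3, at -0.21 male minus female on the log2 scale (SE 0.10, edgeR adjusted p = 0.587), and Grm5, at -0.10 (SE 0.05, adjusted p = 0.641).

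The receptors' partners were read from 5 lists of genes. Of 12 partners and scaffolds of group I receptors, 4 were higher and 5 lower in PV-titled libraries (9 called, against 87.5% of all genes). Shank2 and Shank3, scaffolds of the postsynaptic density, were higher by 1.60 and 1.32 on the log2 scale, with edgeR adjusted p of 6.59e-50 and 1.49e-30. Ncdn (neurochondrin, which binds mGlu5) differed by -1.58 (adjusted p = 1.30e-44). The median over the list was -0.05. Homer1, which links mGlu5 to the postsynaptic scaffold and to internal calcium stores, was the clearest rhythm among them. Its amplitude was 0.36 under the PV titles (SE 0.06, peak ZT21.7, edgeR adjusted p = 0.000195) and 0.26 under the C titles (SE 0.05, peak ZT22.6, adjusted p = 0.000402). In C-titled libraries Homer3 (0.14, peak ZT10.3, adjusted p = 0.00952) and Arrb1, which encodes an arrestin (0.15, peak ZT20.5, adjusted p = 0.0114), were called as well. With the libraries that stood apart left out, 4 of the 12 were called under the C titles, beside 22% of all genes. Gene counts do not separate the long and the activity-induced short forms of Homer1.

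Of 12 genes of the Gq pathway, through which mGlu5 signals, 3 were higher and 8 lower in PV-titled libraries, with a median of -0.39, beside 44.3% of all genes higher and 43.2% lower. The phospholipase gene Plcb3 was higher by 2.51 on the log2 scale (edgeR adjusted p = 4.57e-36), whereas the protein kinase C gene Prkcb differed by -0.87 (adjusted p = 3.10e-33). None of the 12 was called rhythmic in PV-titled libraries (3.10% of all genes were), and 2 of 12 were in C-titled libraries (27.0% of all genes), namely Cnr1, the cannabinoid receptor (0.42, peak ZT3.76, adjusted p = 0.0171), and Mgll, which breaks down its ligand 2-arachidonoylglycerol (0.12, peak ZT13.9, adjusted p = 0.0272). With the libraries that stood apart left out, 1 of 12 was called under the C titles, beside 22% of all genes, and Cnr1 was not called.

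Of 19 genes of the Gi/o pathway, which groups II and III use, 5 were higher and 12 lower, with a median of -0.35, again beside 44.3% and 43.2% of all genes. Rgs4 and Rgs14, which speed the shut-off of Gi/o proteins, differed by -1.32 and -1.29, and Gnai1, an inhibitory G-protein subunit, by -1.16, each with an edgeR adjusted p under 0.05 (6.51e-49, 1.75e-46 and 5.16e-46). No gene of the list was called rhythmic in PV-titled libraries, where 3.10% of all genes were. With the libraries that stood apart left out, 1 was, beside 4.06% of all genes. In C-titled libraries 5 of 19 were, a share near the 27.0% of all genes, led by the potassium channel gene Kcnj9 (0.20, peak ZT17.2, adjusted p = 0.00154), the G-protein gene Gnaz (0.15, peak ZT17.6, adjusted p = 0.00357) and the potassium channel gene Kcnj3 (0.16, peak ZT6.66, adjusted p = 0.00380).

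The anchors of group III receptors did not all go one way. Elfn1, a trans-synaptic partner known to recruit mGlu7 onto terminals that contact certain interneurons, was higher in PV-titled libraries by 0.62 on the log2 scale (SE 0.12, edgeR adjusted p = 3.01e-06). Its relative Elfn2 differed by -0.49 (SE 0.10, adjusted p = 6.84e-06), and Grip1, a PDZ scaffold, was higher by 0.87 (SE 0.05, adjusted p = 3.88e-31). Grip1 was called rhythmic under the PV titles (0.22, peak ZT5.48, adjusted p = 0.0381) and under the C titles (0.15, peak ZT8.91, adjusted p = 0.0325), and Elfn2 in C-titled libraries (0.31, peak ZT16.8, adjusted p = 0.0393). With the libraries that stood apart left out, 1 of the 4 anchors was called under each title.

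Of the 5 measured genes that make NAAG or clear glutamate, 4 were higher in PV-titled libraries and Slc1a1, the neuronal transporter, was lower at -0.68, where 87.5% of all genes were called and 44.3% were higher. Slc1a3 and Slc1a2, the glial transporters, were higher by 2.19 and 0.89 on the log2 scale, and Rimkla, which makes NAAG, by 1.16 (edgeR adjusted p = 5.16e-53, 2.02e-30 and 5.30e-23). Both glial transporters also belong to the astrocyte markers, which were higher in the same libraries. In C-titled libraries Rimklb (0.28, peak ZT5.88, adjusted p = 0.0155), Slc1a2 (0.20, peak ZT3.61, adjusted p = 0.0199) and Slc1a1 (0.15, peak ZT20.2, adjusted p = 0.0451) were called rhythmic, 3 of 5 beside 27.0% of all genes. With the libraries that stood apart left out, 2 of 5 were called beside 22% of all genes, and Slc1a2 was not called.

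**Figure D5:**
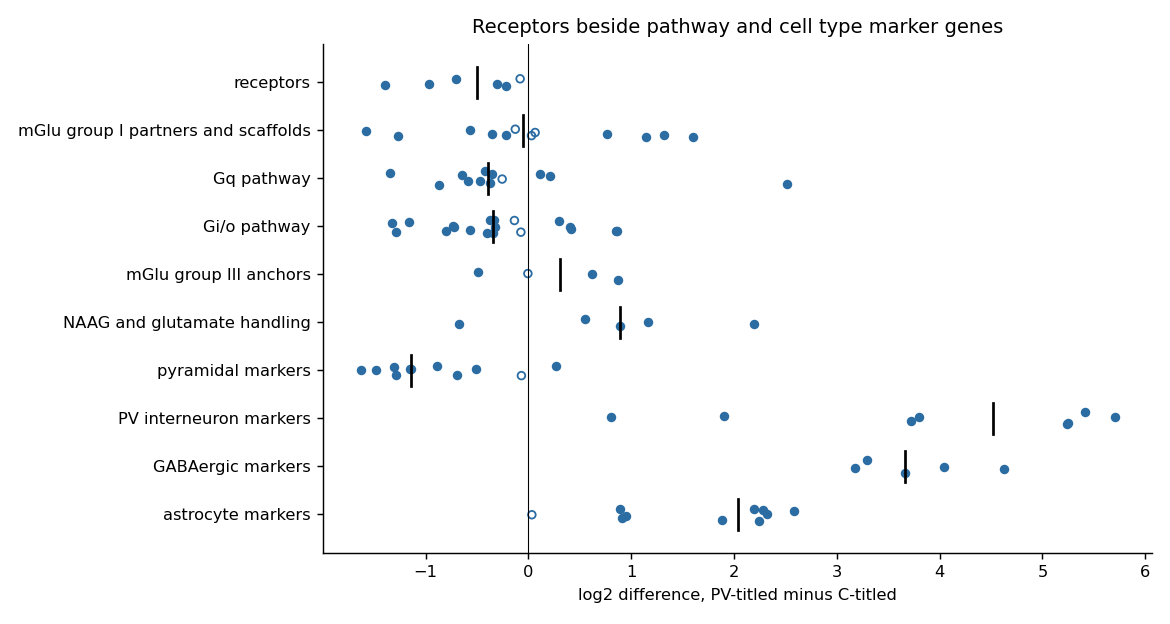
Log2 difference between titles for the 6 receptors and for the genes of the pathway and marker lists, with filled points for genes at an adjusted p under 0.05 and a bar at each list's median. The receptors' median of -0.50 lies between the pyramidal markers at -1.14 and the astrocyte markers at 2.04.

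Across libraries of 1 title, the log2 CPM of each receptor was set against the log2 of the summed CPM of 5 marker lists, 60 relations in all. Pearson and Spearman correlations were both past an adjusted p of 0.05 for 5 of them, and 1 of these held within both ranges of library numbers. That was Grm2 with the pyramidal markers in PV-titled libraries (n = 55), with Pearson r = 0.63 and Spearman rho = 0.58 (permutation p = 1e-05 for each, the smallest 100000 permutations can give, adjusted p = 0.0003). Without the 2 libraries farthest from the median of the markers r was 0.58, and within the ranges it was 0.68 (permutation adjusted p = 0.0042) and 0.56 (adjusted p = 0.0316). PV-titled libraries with more pyramidal marker RNA thus held more Grm2 RNA. In C-titled libraries the same relation had r = 0.25 and rho = 0.24 (permutation p = 0.0547 and 0.0729, adjusted p = 0.193 and 0.216), with r = 0.20 without the 2 farthest and 0.32 and 0.29 within the ranges. Some Pearson correlations there passed only without the libraries that stood apart. With the other interneuron markers, Grm7 moved from r = 0.14 to 0.67 (permutation adjusted p = 0.0002) and Grm4 from -0.02 to 0.52 (adjusted p = 0.0009). Within the ranges neither passed, at -0.24 and 0.14 for Grm7 and -0.53 and 0.14 for Grm4.

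Grm3 followed the pyramidal markers over all libraries of a title, but the correlation passed in neither range alone. In PV-titled libraries r was 0.54 and rho 0.53 (permutation p = 3e-05 and 4e-05, adjusted p = 0.0006 for each), 0.59 without the 2 farthest libraries, and 0.26 and 0.41 within the ranges (permutation adjusted p = 0.286 and 0.13). In C-titled libraries r was 0.49 and rho 0.54 (permutation p = 0.00012 and 2e-05, adjusted p = 0.0018 and 0.0004), 0.50 without the 2 farthest, and 0.07 and 0.08 within the ranges (permutation adjusted p = 0.759 and 0.875). Against the oligodendrocyte lineage markers Grm3 in C-titled libraries gave r = -0.58 and rho = -0.53 (permutation p = 1e-05 for each, adjusted p = 0.0003), -0.54 without the 2 farthest, and -0.61 and -0.41 within the ranges (adjusted p = 0.0171 and 0.13). Grm7 in C-titled libraries gave r = 0.45 and rho = 0.36 with the same markers (permutation p = 0.00053 and 0.00617, adjusted p = 0.00636 and 0.0415), 0.34 without the 2 farthest, and 0.37 and 0.33 within the ranges (adjusted p = 0.127 and 0.241). Without the libraries that stood apart this call was lost, at r = 0.33 (permutation adjusted p = 0.0694). Grm3 and the astrocyte markers had r = 0.18 under the PV titles and -0.17 under the C titles, with rho of 0.14 and -0.24 (permutation p = 0.19 and 0.199 for r and 0.324 and 0.0694 for rho, adjusted p = 0.407 and 0.412 for r and 0.499 and 0.216 for rho). Without the 2 farthest libraries r was 0.20 and -0.28. Without the libraries that stood apart it was 0.10 (permutation adjusted p = 0.649) and -0.42 (adjusted p = 0.0094), the latter past the threshold. Within the ranges it was 0.60 and 0.43 in PV-titled libraries (adjusted p = 0.0174 and 0.114), both above the value over all of them, and 0.33 and 0.08 in C-titled ones (adjusted p = 0.175 and 0.875).

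Among themselves, after removal of sex and range, the receptors' levels varied together in some pairs only, given here as descriptions over libraries that share depth and quality. Grm2 and Grm3 had a Spearman correlation of 0.40 under the PV titles and 0.41 under the C titles. Grm2 and Grm4, of different groups, had 0.41 and 0.40, and Grm2 and Grm8 had 0.04 and 0.37. Grm7 and Grm8 had 0.60 in C-titled and 0.23 in PV-titled libraries, and Grm2 and Grm7 had 0.57 and -0.15. Grm4 and Grm5 ran opposite, at -0.50 in C-titled and -0.29 in PV-titled libraries. Without the libraries that stood apart, Grm2 and Grm3 in C-titled libraries had 0.61, Grm4 and Grm5 -0.51, and Grm2 and Grm7 0.45. In the same C-titled libraries Grm7 and Grm8 had 0.51, while Grm2 and Grm4 fell to 0.22 and Grm2 and Grm8 to 0.20.

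The genes most like each receptor by the same measure are named without a claim on function. For Grm2 they were Mlip, Ephb6 and Pde8b in C-titled libraries (0.80, 0.79 and 0.78) and Syn1, Cnih3 and Cyfip2 in PV-titled ones (0.72, 0.71 and 0.71). For Grm3 they were Dlgap1, Pcsk2 and Lrrc4c (0.74, 0.71 and 0.70) and, in PV-titled libraries, Gm29587, Fam171b and Mtpn (0.62, 0.61 and 0.60). For Grm5 they were Ttbk2, Bmpr2 and Akap6 (0.85, 0.84 and 0.83) and then Ube3a, Gria4 and Slit2 (0.76, 0.67 and 0.65). For Grm7 they were Copa, Nrd1 and Mtmr3 in C-titled libraries (0.89, 0.87 and 0.85), and in PV-titled ones its overlapping neighbour Gm20387 came first at 0.78, before Gm15594 and E030013I19Rik (0.62 each). For Grm8 they were Enpp5, Sh3gl2 and Rap1gds1 (0.79, 0.78 and 0.78) in C-titled libraries and, among others, Trappc8 and Zhx2 in PV-titled ones (0.52 each), and for Grm4 Asic2, Sept3 and Slc22a23 (0.72, 0.71 and 0.70) against Map3k10, Flywch1 and Spryd3 (0.65, 0.64 and 0.62). No gene was among the 3 most like a receptor in both titles.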

How the data were processed

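Whole-number counts per Ensembl gene were deposited by the authors as 1 table. Per the labels' protocols, tagged ribosomes were pulled down with an anti-hemagglutinin antibody, cDNA was made with the SMART-seq HT kit and libraries with Nextera Flex. Per the submitters' processing notes, FastQC, HTSeq and DESeq2 were used with the GRCm38 build; the aligner is not given in the sources used here, nor is any use of strand. Of 114 libraries, 113 were used, since 1 column's name disagreed with its library's title on sex. The HTSeq rows that name no gene, chiefly reads in no feature (55.5% to 67.7% of the counts, median 61.2%, in PV-titled and 51.9% to 59.4%, median 52.8%, in C-titled libraries), were left out of library sizes and tests. The receptors and lists were chosen with earlier results of these data known. Groups came from the titles.

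Counts were filtered with filterByExpr, scaled by TMM and tested with edgeR 4.0.16 (R 4.3.3, limma 3.58.1) by its quasi-likelihood F test, with Benjamini-Hochberg adjustment over all genes tested and a threshold of 0.05. The difference between titles was adjusted for time as a factor, sex and library-number range. Rhythm was a 24 h cosine and sine, tested jointly with sex and range in the model. CPM uses TMM over all libraries, per kb by the union of GENCODE vM21 exons. Correlations used log2 of CPM plus 0.5. A library stood apart when its median correlation with its title lay over 5 scaled median absolute deviations below the title's median. Alternatives were RLE scaling, no scaling, no filter, DESeq2 1.42.0, single replicate numbers, ranges or sexes left out, no range term and time as a factor, plus, added after the data were seen, the number that opens each title as a block. The scripts were tested on simulated data. Named pathway genes are, per list, the 3 called genes with the largest difference between titles, each gene called rhythmic in PV-titled libraries and the 3 with the smallest adjusted p in C-titled ones; Slc1a1 was added after its value was seen. Of the NAAG and glutamate list, Folh1 and Naalad2 were not used here. Lists of likeness hold the 3 genes with the highest Spearman correlation. Some genes these rules name are not reported here.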

Additional observations from a re-analysis of the deposited data

Results flagged for a closer look

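In 4 of the 72 groups of 1 receptor, title and time, 1 library lay far from the others of its group by Dixon's criterion, which chance alone does for about 1 in 20 groups. Grm8 at ZT22 in PV-titled libraries had its highest library at 45.4 CPM with the next at 25.0 CPM, at the time of the highest Grm8 mean. Grm5 at ZT6 in C-titled libraries had its highest library at 306.2 CPM with the next at 222.2 CPM, and this library is 1 of those that stood apart. Grm3 at ZT14 in PV-titled libraries had its highest at 83.4 CPM with the next at 51.0 CPM. Grm2 at ZT14 in C-titled libraries had its lowest at 178.4 CPM with the next at 198.1 CPM, in the group with the smallest SD of Grm2 among the C-titled times (11.1 CPM).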

How the results depend on the processing

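The number of receptors called in the difference between titles (5) stayed within 1.5 times under all 17 alternatives, with 4 to 5 called when replicate numbers were left out in turn. It was 6 without the libraries that stood apart. The alternatives called 79.6% to 88.7% of all genes, so a steady count says little by itself. Grm2, Grm8, Grm3 and Grm5 were lower in PV-titled libraries and called under each of the 17. Grm7 changed sign without scaling beyond library size (0.11) and in the second range alone (0.0889), and ran from -0.15 to 0.00147 as replicates were left out. Without scaling the median of all genes moved from 0.01 to 0.21, and the receptors' differences moved up with it, Grm2 to -1.20 and Grm5 to -0.10.

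The count of receptors called rhythmic in C-titled libraries (2) depended on the setting. It was 1 without scaling, 1 in the second range alone (Grm8) and 1 with range left out of the model. It was 0 in the first range alone, 0 in females, 0 in males and 0 with time as a factor, and 0 to 2 as replicates were left out. These subsets hold fewer libraries and called fewer of all genes than the 27.0% of the main model. The share was 2.90% in the first range alone, 10.2% in the second, 2.07% in females and 3.63% in males. It was 13.8% to 26.3% as replicates were left out. At such shares a count among 6 receptors says little by itself. Grm3 lost its call in 9 of 18 alternatives and Grm5 in 11, with amplitudes of 0.19 to 0.28 and 0.09 to 0.15; beyond the smaller subsets the cause was not tested. The counts of 0 for rhythm in PV-titled libraries, the rhythm difference and sex were 0 under each alternative run. For rhythm in PV-titled libraries the alternatives called 0.0613% to 4.39% of all genes. In the main models the shares were 1.12% for the rhythm difference and at most 0.184% for sex. Counts of 0 among 6 receptors say little by themselves at such shares. The relation of Grm8 to other interneuron markers in PV-titled libraries turned from -0.43 to 0.0642 in the second range alone.

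Titles open with a number from 1 to 5, and this number as a replicate block, an alternative added after the data were seen, changed no call of a receptor. It left 5 called between titles and 2 rhythmic in C-titled libraries, with Grm4 at -0.21 (edgeR adjusted p = 0.0495), but lowered the share of all genes called in the rhythm difference from 1.12% to 0.13%. The main models hold no term for the number, although libraries with the same number shared part of their deviations from group means. These deviations correlated over 0.1 in 46.9% of the 637 pairs with the same number and different titles, beside 26% of pairs with other numbers. Within a title the shares were 58.9% and 25.5%. Of the 5 numbers, 32 of 55 PV-titled and 39 of 58 C-titled libraries lay closest to their own. Unlike the pairs, this count kept libraries of the same title, time and sex. Their deviations from a shared mean tend to run opposite, and they mostly carry other numbers, so the count favours the own number. Range was not removed from these deviations, and the numbers largely follow the ranges, so the shares include any effect of range. The main models hold a term for range, but the main p-values take no other part of this sharing into account. The replicates left out above are numbered in accession order and pair no libraries. Per kb of the longest transcript in place of all exons, Grm5 stood at 19.8 and 24.5 CPM per kb (PV-titled, C-titled), Grm7 at 17.9 and 18.9 and Grm8 at 4.08 and 7.94. Grm4, with as few as 59 counts in a library, is the receptor most limited by depth.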
